A study of Mus musculus with 6 samples.

Results

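The genes described here are 10 gonadal and steroidogenic genes known as targets of GATA factors in the gonad: Star, Cyp11a1, Cyp17a1, Cyp19a1, Hsd17b1, Amh, Inha, Inhbb, Nr5a1 and Lhcgr. They were chosen by name for their known role, with earlier results of these data known. They are 10 of 21938 protein-coding genes of the mouse GENCODE M21 annotation (mm10). For each gene a window was drawn that held the gene body and 50 kb on either side of every annotated transcription start site (TSS), and all called regions that overlapped it by at least 1 bp were taken. GATA4 and GATA6 were each mapped by CUT&RUN, in which an antibody brings a nuclease to a DNA-bound protein so that the DNA around it is cut out and sequenced, in mouse extra-embryonic endoderm (XEN) cells, self-renewing cells that stand for the primitive endoderm (PrE). There were 6 libraries, 3 per factor, from cells of the line 3F2 with no treatment named in the labels, each made from 500000 cells and sequenced to a stated 30 M reads. The 3F cells come from mice homozygous for 3 transgenes, R26:M2rtTA, Col1a1:OKSmCh and Oct4:EGFP, which both groups carried, and the labels of the groups differ in the antibody target. The labels name 3F2 alone, while the study's methods also name 3F6 and fewer replicates, and nothing says that the libraries came from separate cultures, so the spread between libraries may be technical.

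GATA4 and GATA6 are zinc finger proteins that bind the sequence GATA in DNA. In gonadal somatic cells (Sertoli, Leydig, granulosa and theca cells) GATA4 and GATA6 act with the nuclear receptor steroidogenic factor 1, the product of Nr5a1, on promoters of genes for steroid synthesis and for hormones of the TGF-beta family. In the embryo the same factors also specify the primitive endoderm, which makes no sex steroids. The comparison therefore addressed whether gonadal targets of GATA4 and GATA6 are also occupied by them in endoderm cells.

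None of the 10 genes had a region at its own promoter that was called in all 3 libraries of a factor. The combined lists, which hold the 8282 GATA4 and 5170 GATA6 regions present in all 3 replicates of a factor, placed a region in the windows of 3 of 10 genes for GATA4 and of 3 of 10 for GATA6, and these were Star, Hsd17b1 and Amh in both lists. Over all protein-coding genes, 48.2% had a GATA4 and 38.3% a GATA6 combined region in the same kind of window, so the gonadal genes were not above the background. With the midpoint required to lie within 1 kb of an own TSS, 0 of 10 gonadal genes were left for either factor, against 19.3% of all genes for GATA4 and 13.5% for GATA6. A gonadal gene's TSS was the nearest protein-coding TSS of a combined region in 0 of 10 cases for either factor, against 25.8% and 18.1% of all genes. In a window of 10 kb, 1 of 10 genes, Hsd17b1, kept a combined region of either factor, against 29.8% of all genes for GATA4 and 21.5% for GATA6. In a window of 100 kb, 7 of 10 genes had a GATA4 and 5 of 10 a GATA6 combined region, against 59.9% and 49.9%. With all regions shared by GATA4 replicates 2 and 3 alone, 5 of 10 genes had one, against 54.6% of all genes. With those of replicates 1 and 2 also 5 had one, against 56.4%. With those of replicates 1 and 3 the count stayed at 3, and the share of all genes was not counted for this pair. These shares are descriptions of a list of 10 genes, and no test was made of them.

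**Figure D1:**
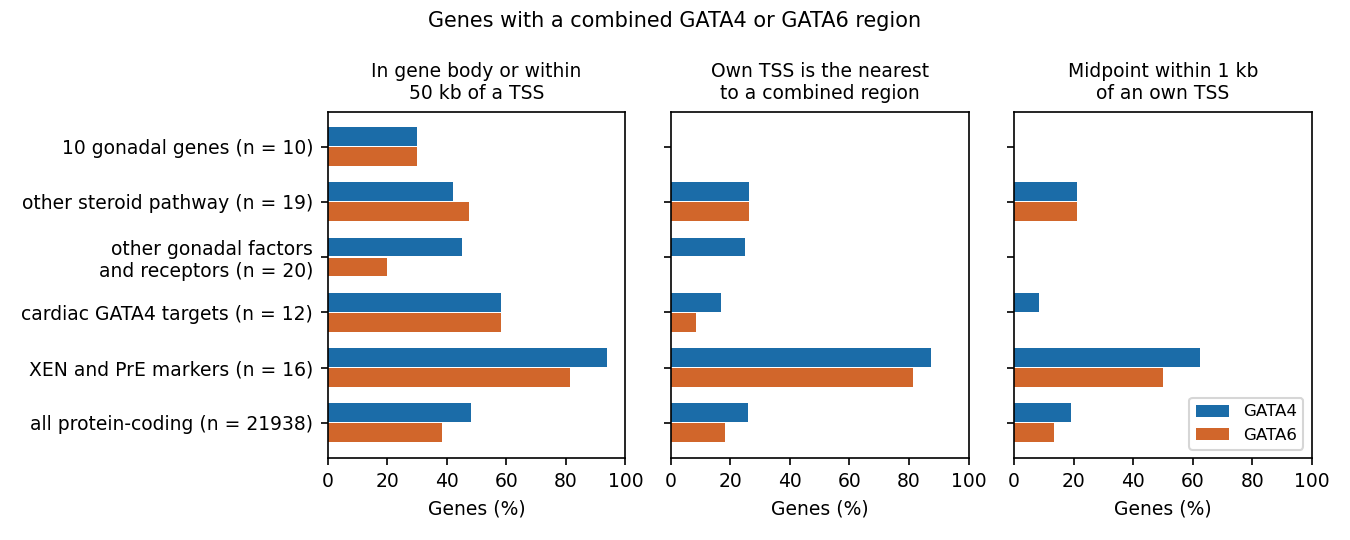
Percent of genes with a combined GATA4 (blue) or GATA6 (orange) region, for the 10 gonadal genes, 4 other gene lists and all 21938 protein-coding genes, under 3 rules: in the 50 kb window (left), own TSS nearest to the region (middle) and region midpoint within 1 kb of an own TSS (right). The bars of the gonadal genes stand at 30% on the left, below the 48.2% and 38.3% of all genes, and are at 0 in the middle and on the right; bars have no error because each is a count of genes in a single list.

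Genes that a XEN cell is known for were counted under the same rules. Of 16 XEN and PrE markers, 15 had a GATA4 and 13 a GATA6 combined region in the window, and 10 and 8 had one at their own promoter. Those with both factors at the promoter were the transcription factors Gata6, Sox17 and Sox7, the receptor gene Pdgfra, the endocytic adaptor gene Dab2 and the laminin chain genes Lama1, Lamb1 and Lamc1. Of 19 other genes of steroid synthesis and cholesterol handling, 8 had a GATA4 and 9 a GATA6 combined region in the window and 4 had one at the promoter for each factor, with Fdxr, the ferredoxin reductase that feeds electrons to mitochondrial P450 enzymes, at the promoter for both. Of 20 other gonadal factors and hormone receptors, 9 had a GATA4 and 4 a GATA6 combined region in the window and 0 had one at the promoter. Of 12 cardiac GATA4 targets, 7 had a combined region of each factor in the window, with 1 at the promoter for GATA4 and 0 for GATA6. The files hold no expression values, so these marker counts are the only values set beside the label XEN. The markers were listed with earlier results of these data known, and Gata4 and Gata6 are among them. The counts are therefore a description and do not establish cell identity.

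The number of called regions in the 10 windows did not separate the factors. GATA4 replicates 1, 2 and 3 had 23, 35 and 29 regions there, on average 29 ± 6 (SD, n = 3). For GATA6 the replicates had 21, 27 and 26, on average 24.7 ± 3.21 (SD, n = 3). The ranges overlapped, and the difference of 4.33 regions per library was smaller than the SD of the GATA4 libraries. Without GATA4 replicate 2 the difference was 1.33. For single genes, a two-sided exact permutation test over libraries gave p between 0.2 for Amh and 1, where 3 against 3 libraries cannot go below 0.1, and the Benjamini-Hochberg adjusted p over the 20940 genes with a called region was 1 for every gene tested. The counts of the 2 factors failed to overlap in 0 of 10 gonadal genes, against 7.18% of all genes tested. A missed threshold in a design of this size does not show that the factors occupy these windows alike. All lists were made of weak regions: 76.1% of the regions in GATA4 replicate 1 had a maximum of 5 stacked fragments or fewer, and the share reached 83.0% in GATA6 replicate 2. The 6 libraries had 42446 to 49597 regions each.

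**Figure D2:**
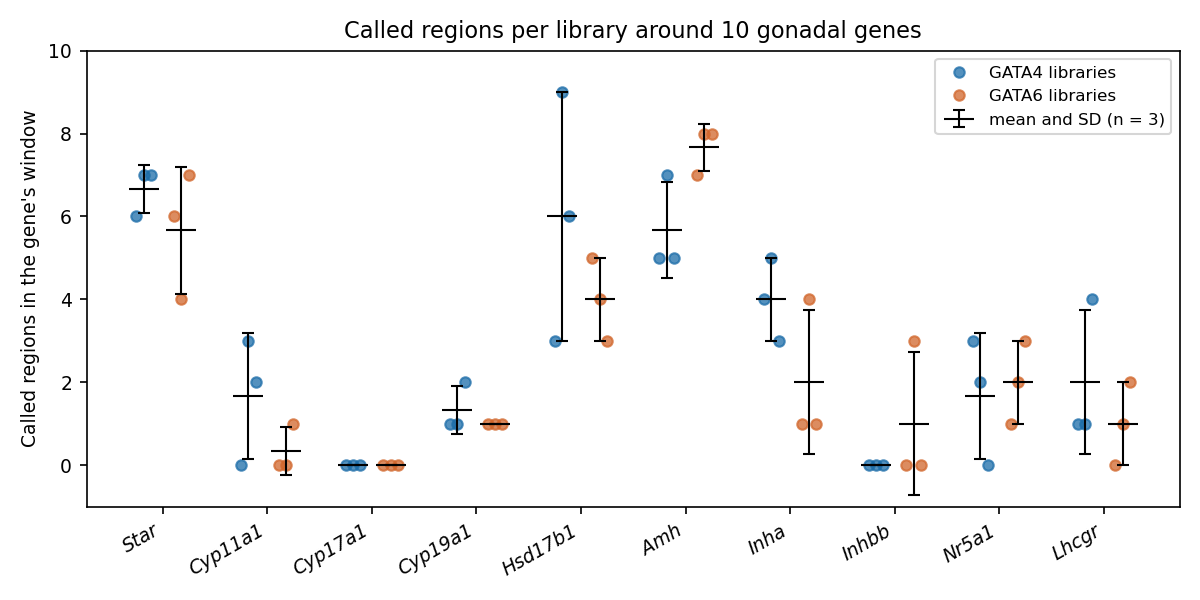
Called regions in the window of each gonadal gene (y axis, number of regions), with 1 point per library for GATA4 (blue) and GATA6 (orange), and the mean with SD of 3 libraries in black. Star, Hsd17b1 and Amh had the highest counts for both factors, Cyp17a1 was at 0 in all 6 libraries, and the points of the factors overlapped in every gene.

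The 6 lists together held 95 distinct merged regions in the 10 windows. Of these, 70 (73.7%) were called in a single library, 11 in 2, 3 in 3, 3 in 4, 2 in 5 and 6 in all 6 libraries. Over the 201994 merged regions of the series, 83.2% were in a single library and 1.88% in all 6, against 6.32% of those in the gonadal windows. A gonadal gene's own TSS was the nearest for 29 of the 95 regions, and of these 6 (20.7%) were called in 2 libraries and 0 in 3 or more. Over all merged regions of the series, 16.8% were called in 2 or more libraries and 8.01% in 3 or more, so the share in 2 or more was near the background. All 14 regions in 3 or more libraries were among the 66 nearest to the start of another gene. The maximum signal is the number of fragments stacked at the highest point of a region. For the 29 regions nearest to a gonadal gene's own TSS, the highest maximum in any library was between 2 and 6. The 9 regions of the combined lists reached between 7 and 15. A region called in more libraries has more chances of a high maximum, and signal is not scaled for depth, so this contrast is a description.

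**Figure D3:**
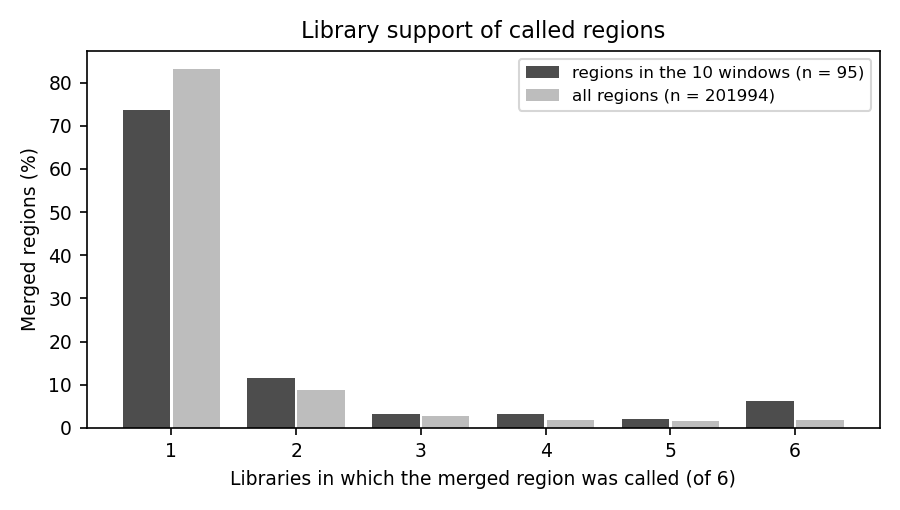
Percent of merged regions (y axis) by the number of libraries, of 6, in which the region was called (x axis), for the 95 regions in the gonadal windows (dark) and all 201994 regions (light). Single-library regions made up 73.7% in the gonadal windows and 83.2% in the series, and regions of all 6 libraries 6.32% and 1.88%.

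Star encodes the protein that carries cholesterol into the mitochondrion, the step that limits steroid synthesis. The gene lies at chr8:25806555-25815982 on the plus strand. Its window held 6, 7 and 7 regions in the GATA4 and 6, 4 and 7 in the GATA6 replicates, with means of 6.67 ± 0.577 and 5.67 ± 1.53 (SD, n = 3; exact permutation p = 0.7). Star thus had regions in every library, with overlapping counts for the factors. Both of its combined regions were called in all 6 libraries and covered the TSS of another gene. The first, chr8:25784733-25785923, lay 20632 bp upstream of Star over the divergent starts of Bag4 and Lsm1, with maximum signals of 7, 10 and 5 in the GATA4 and 9, 8 and 15 in the GATA6 replicates. The second, chr8:25840239-25841369, lay 31765 bp downstream over a start of Ash2l, a subunit gene of histone methyltransferase complexes, with maxima of 5, 5 and 7 and of 5, 6 and 6. On chromosome 8, 74.6% of protein-coding genes had a GATA4 and 70.3% a GATA6 combined region in their window. Star's 37 calls summed over 6 libraries were below the median of 47 for genes on chromosome 8, while only 14.3% of all genes had as many. The values of Star therefore stood beside a chromosome with dense calls, and the part of that density in them was not tested.

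Within the Star gene, 1 region was called in more than a single library. It spanned chr8:25810035-25811407 with its midpoint in an intron, 1561 bp from the nearest annotated Star start, and was called in GATA4 replicate 3 with a maximum of 4 and in GATA6 replicate 3 with a maximum of 3. It held 5 matches to the GATA motif (the core GATA with A or T before it and A or G after it, on either strand), with at least 1 within 100 bp of its midpoint and 0 within 100 bp of the point of highest signal. This region was outside the rule for named regions and was chosen after its values were seen.

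Cyp11a1 encodes the side-chain cleavage enzyme that turns cholesterol into pregnenolone, the first enzymatic step of steroid synthesis. It lies at chr9:58006411-58027023 on the plus strand. The GATA4 replicates had 0, 3 and 2 regions in its window and the GATA6 replicates 0, 0 and 1, with means of 1.67 ± 1.53 and 0.333 ± 0.577 (SD, n = 3; exact permutation p = 0.4). The ranges overlapped. No combined region lay in the window, and the nearest were 95299 bp (GATA4) and 235626 bp (GATA6) from a Cyp11a1 start. The best supported region near the gene, chr9:58003068-58003748, was 2663 bp upstream and was called in GATA4 replicates 2 and 3, each with a maximum of 3, and in no GATA6 library. It is the region closest to a steroid enzyme's own start with more than a single GATA4 call, and it is shown for that reason. It held 0 matches to the motif over its 681 bp, of which the 151 bases around its point of highest signal are printed.
Cyp11a1 upstream region, chr9:58003214-58003364, mm10, plus strand: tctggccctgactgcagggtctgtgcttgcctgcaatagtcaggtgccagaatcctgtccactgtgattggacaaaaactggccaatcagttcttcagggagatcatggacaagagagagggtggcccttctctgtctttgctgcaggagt

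Cyp17a1 encodes the 17-alpha-hydroxylase and 17,20-lyase of androgen synthesis. It lies at chr19:46667165-46673172 on the minus strand. Its window of 103660 bp held 0 called regions in each of the 6 libraries, the lowest count possible. Such an empty window was found for 1 of the 10 gonadal genes and for 4.55% of all protein-coding genes. On chromosome 19 it was rarer, at 13 of 719 genes (1.81%), where the median gene had 36 calls over 6 libraries. The window nevertheless held 208 matches to the GATA motif. The nearest combined regions were 54646 bp (GATA4) and 145124 bp (GATA6) from a Cyp17a1 start, so the gene entered the GATA4 count only when the window was widened to 100 kb. The lists give no coverage outside called regions, so whether these bases were sequenced in these libraries is unknown.

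Cyp19a1 encodes aromatase, which makes estrogens from androgens. It lies at chr9:54165937-54268110 on the minus strand and has 5 annotated starts. The GATA4 replicates had 1, 1 and 2 regions and the GATA6 replicates 1, 1 and 1, with means of 1.33 ± 0.577 and 1 ± 0 (SD, n = 3; exact permutation p = 1). All of the calls were different regions: 7 merged regions were each called in 1 library only. The region nearest to a start, chr9:54192737-54193227, was in an intron 215 bp from an internal start and was called in GATA6 replicate 3 with a maximum of 3. The nearest combined regions were 291890 bp (GATA4) and 291869 bp (GATA6) away, and 77.7% and 69.6% of all genes had one as near or nearer.

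Hsd17b1 encodes a 17-beta-hydroxysteroid dehydrogenase that turns estrone into estradiol in granulosa cells. It lies at chr11:101078411-101080527 on the plus strand, among 7 other protein-coding genes with a start in its window, where the median over all genes was 2. The GATA4 replicates had 3, 9 and 6 regions and the GATA6 replicates 5, 4 and 3, with means of 6 ± 3 and 4 ± 1 (SD, n = 3; exact permutation p = 0.5). GATA4 replicate 2 was highest, and the factors overlapped. It was the gonadal gene with a combined region nearest to its start: chr11:101082190-101082927, called in all 6 libraries with maxima of 9, 8 and 8 for GATA4 and 9, 7 and 10 for GATA6, lay 3779 bp downstream of the Hsd17b1 start and covered the start of Coasy, the gene of coenzyme A synthase. Of all genes, 22.5% had a GATA4 and 15.8% a GATA6 combined region as near or nearer.

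The other combined regions around Hsd17b1 also covered starts of other genes. The region chr11:101119412-101120485, 41001 bp downstream over Tubg1, the gamma-tubulin gene, and its divergent neighbour Retreg3, was called in all 6 libraries, with maxima of 12, 6 and 12 for GATA4 and 7, 12 and 13 for GATA6. It ranked high in each list, at the 88.5th to the 98.8th percentile of total signal. The region chr11:101069694-101070192, 8219 bp upstream over the start of Naglu, the gene of a lysosomal glucosaminidase, was in the GATA4 combined list only, but 2 of 3 GATA6 libraries called it too. No called region of any library lay in the Hsd17b1 gene body or within 1 kb of its start.

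Amh encodes anti-Müllerian hormone, a TGF-beta family hormone of Sertoli and granulosa cells. It lies at chr10:80805243-80807648 on the plus strand, with 7 other protein-coding genes starting in its window. The GATA4 replicates had 5, 7 and 5 regions and the GATA6 replicates 7, 8 and 8, with means of 5.67 ± 1.15 and 7.67 ± 0.577 (SD, n = 3; exact permutation p = 0.2). The groups met at 7. Amh had the most calls of the 10 genes, 40 over 6 libraries against a median of 16 on chromosome 10, and 9.99% of genes on that chromosome had as many.

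Of the 9 combined regions around the gonadal genes, 2 covered no start, and both were in the Amh window. The first, chr10:80831097-80831695, lay 25854 bp downstream of Amh and 2504 bp from the nearest start, that of Oaz1, an inhibitor of ornithine decarboxylase. It was called in all 6 libraries, with maxima of 15, 11 and 11 in the GATA4 and 13, 7 and 8 in the GATA6 replicates, and its maximum of 15 was matched in the 10 windows only by the Bag4 and Lsm1 region in GATA6 replicate 3. It was also the only region called in all 6 libraries around these genes with a match to the motif within 100 bp of its midpoint, so its 151 bases around the point of highest signal are shown, with the match in capitals.
Region 3′ of Amh, near Oaz1, chr10:80831255-80831405, mm10, plus strand: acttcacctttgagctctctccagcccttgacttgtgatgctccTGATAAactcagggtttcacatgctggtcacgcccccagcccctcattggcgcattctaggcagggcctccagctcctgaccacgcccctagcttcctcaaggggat

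The match was TGATAA on the plus strand. The second region without a start, chr10:80848612-80849099, lay 43369 bp downstream of Amh and 4573 bp from Lingo3. It was in the GATA6 combined list, with maxima of 10, 5 and 6, and was also called in GATA4 replicates 1 and 2. The other combined regions in the window covered the start of Oaz1, at chr10:80825868-80826737 in all 6 libraries, and the start of Lsm7, at chr10:80854490-80855442 in the 3 GATA6 libraries and GATA4 replicate 2. The Lsm7 region reached beyond the edge of the window.

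Amh itself held 1 called region. It covered chr10:80805817-80806331, with its midpoint in a coding exon 831 bp after the start, and was called in GATA6 replicates 2 and 3 with maxima of 3 and 5 and in no GATA4 library. It was the only region called in more than 1 library within 1 kb of any of the 10 genes' starts and was singled out after its values were seen, so its bases are shown. They hold no match to the 6-letter motif, but they do hold the core GATA, left in lower case.
Amh coding exon, chr10:80805982-80806132, mm10, plus strand: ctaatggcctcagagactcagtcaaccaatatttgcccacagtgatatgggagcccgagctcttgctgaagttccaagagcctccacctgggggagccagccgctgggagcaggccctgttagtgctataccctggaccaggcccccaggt

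**Figure D4:**
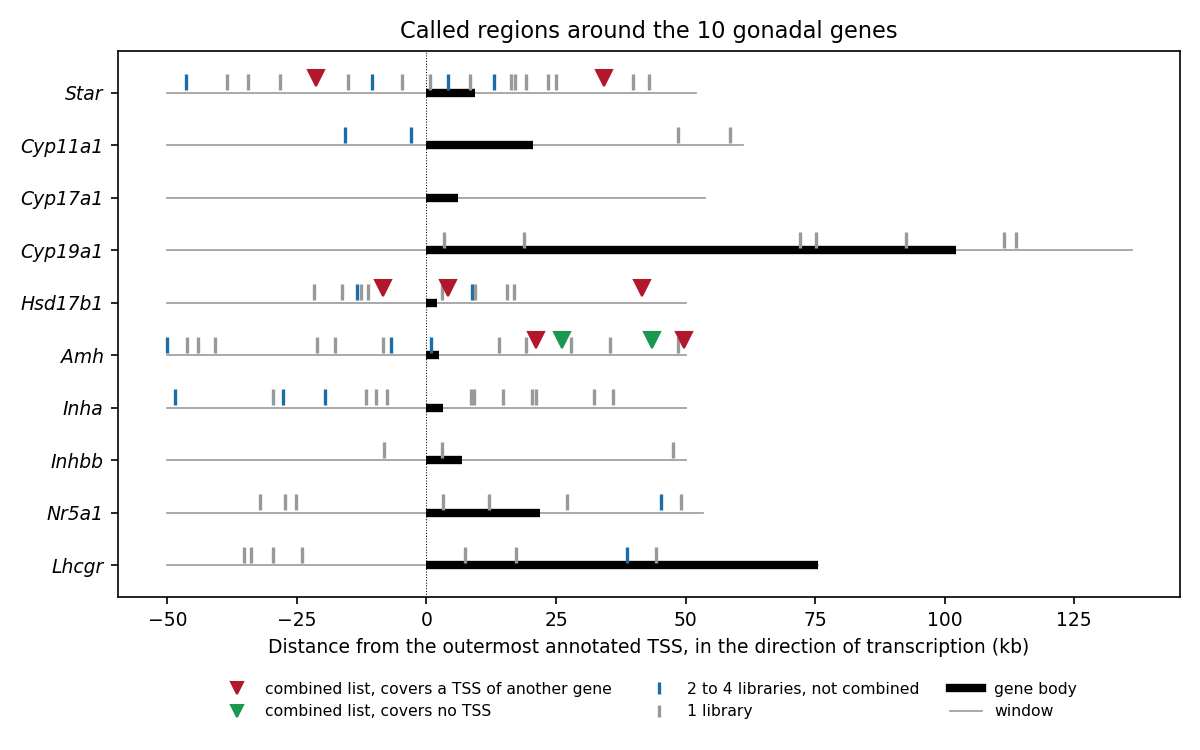
Midpoints of called regions by distance from the outermost annotated TSS of each gonadal gene (x axis, kb in the direction of transcription), 1 row per gene with the gene body in black and the window in grey. The 9 combined regions (triangles) lie in the rows of Star, Hsd17b1 and Amh, 7 over the start of another gene (red) and 2 over no start (green), and none touches a gene body; bars mark the other regions, blue in 2 to 4 libraries and grey in 1.

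Inha and Inhbb encode the alpha subunit of the inhibins and the beta-B subunit shared by inhibin B and activins. Inha lies at chr1:75507077-75510366 on the plus strand and had 4, 5 and 3 regions in the GATA4 and 1, 4 and 1 in the GATA6 replicates, with means of 4 ± 1 and 2 ± 1.73 (SD, n = 3; exact permutation p = 0.3). Its best supported region, chr1:75479150-75479597, lay 27480 bp upstream over a start of Chpf, a chondroitin polymerizing factor, and was called in GATA4 replicates 1 and 2 with maxima of 7 and 5 and in GATA6 replicate 2 with 4. No region lay in Inha or within 1 kb of its start. Inhbb, at chr1:119415465-119422248 on the minus strand and with no other gene starting in its window, had 0, 0 and 0 regions in the GATA4 and 0, 3 and 0 in the GATA6 replicates (exact permutation p = 1). A single library, GATA6 replicate 2, thus gave every call, and the nearest of the 3, chr1:119418892-119419431, was in the intron with a maximum of 3.

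The RefSeq promoter windows of both inhibin genes held GATA letters without a called region over them. The 250 bases before the RefSeq gene starts are shown with the core letters in capitals, written TATC where GATA is on the opposite strand. For Inha these bases lie inside the GENCODE gene model, whose only annotated start, chr1:75507077, is farther upstream. They are therefore not the bases before that start, and the sequence of a promoter there was not read. In Inhbb the core belonged to a full motif match that began 27 bases before the start, and in Inha the core stood alone.
Inha upstream, chr1:75507359-75507608, mm10, plus strand: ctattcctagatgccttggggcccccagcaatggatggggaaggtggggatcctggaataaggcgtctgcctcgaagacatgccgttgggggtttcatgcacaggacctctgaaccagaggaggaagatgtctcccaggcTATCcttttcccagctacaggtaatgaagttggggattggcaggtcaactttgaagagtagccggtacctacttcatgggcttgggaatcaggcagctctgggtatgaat
Inhbb upstream, chr1:119422249-119422498, mm10, minus strand: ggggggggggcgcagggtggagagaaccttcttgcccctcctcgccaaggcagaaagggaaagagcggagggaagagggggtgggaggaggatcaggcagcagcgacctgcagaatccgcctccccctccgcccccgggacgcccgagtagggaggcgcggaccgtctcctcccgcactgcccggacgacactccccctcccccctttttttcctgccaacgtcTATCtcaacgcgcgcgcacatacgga

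The nearest called region of any library lay 7700 bp from the Inha and 2768 bp from the Inhbb RefSeq window of 250 bases before and 50 after the RefSeq start. Promoter windows of the RefSeq table were matched for 5 of the 10 genes: Cyp11a1, Cyp19a1, Inha, Inhbb and Lhcgr. Beside the inhibin windows, the Cyp11a1 window at chr9:58014702-58015001 held 1 full match and 2 cores. The Cyp19a1 windows at chr9:54228865-54229164 and chr9:54268115-54268414 held 1 core each and no full match. The remaining windows held neither. None of the 8 windows overlapped a called region of any library. Of 32851 promoter windows of the same length, 33.7% overlapped one, 29.8% held a full match and 57.9% the core, so the letters alone are common.

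Nr5a1 encodes steroidogenic factor 1, the nuclear receptor that directs gonadal and adrenal differentiation. It lies at chr2:38692656-38714542 on the minus strand. The GATA4 replicates had 3, 2 and 0 regions and the GATA6 replicates 1, 2 and 3, with means of 1.67 ± 1.53 and 2 ± 1 (SD, n = 3; exact permutation p = 1). The libraries spread over the same range, and the direction of the difference turned when GATA4 replicate 3 or GATA6 replicate 3 was left out (0.5 and 0.167 regions more for GATA4). The best supported region, chr2:38669106-38669653, was called in 4 libraries, GATA4 replicates 1 and 2 with maxima of 7 and 4 and GATA6 replicates 1 and 3 with 8 and 8, and lay 41535 bp downstream of the nearest Nr5a1 start. Its nearest start was that of Psmb7, a proteasome subunit gene, at 25019 bp.

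At Nr5a1, 1 region covered an own annotated start, the only such region among the 10 genes. It was chr2:38711165-38711435, over an internal start, and was called in GATA6 replicate 3 alone, with a maximum of 5, where 80.3% of the regions in that library had 5 or less. Its total signal was at the 19.7th percentile of that list. Its 271 bases held 6 motif matches, a number that 1.57% of all merged regions reached or passed. It was chosen after its values were seen and is shown because the matches, in capitals, stand in a stretch of short GATA-like repeats.
Nr5a1 internal start, chr2:38711165-38711435, mm10, plus strand: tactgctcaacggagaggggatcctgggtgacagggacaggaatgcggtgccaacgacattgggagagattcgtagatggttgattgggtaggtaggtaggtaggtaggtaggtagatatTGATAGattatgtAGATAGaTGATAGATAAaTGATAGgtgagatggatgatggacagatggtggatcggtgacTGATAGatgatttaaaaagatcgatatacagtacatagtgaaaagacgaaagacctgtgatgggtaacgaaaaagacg

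Lhcgr encodes the receptor for luteinizing hormone and chorionic gonadotropin. It lies at chr17:88716481-88791990 on the minus strand with no other gene starting in its window. The GATA4 replicates had 1, 1 and 4 regions and the GATA6 replicates 0, 1 and 2, with means of 2 ± 1.73 and 1 ± 1 (SD, n = 3; exact permutation p = 0.7). The counts overlapped. Its best supported region, chr17:88753019-88753720, was in an intron 20336 bp from a start and was called in GATA4 replicates 2 and 3, each with a maximum of 4, and in no GATA6 library. It held 0 motif matches. The nearest combined regions were 107643 bp (GATA4) and 107581 bp (GATA6) from a start of Lhcgr.

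When a call in at least 2 of 3 libraries was enough, the factors gave different counts of genes. For GATA4, 7 of 10 gonadal genes had such a region in the window, all but Cyp17a1, Cyp19a1 and Inhbb, against 65.3% of all genes. For GATA6, 4 of 10 had one, Star, Hsd17b1, Amh and Nr5a1, against 60.4%. The difference between factors over the list was not tested. Genes with a GATA4 combined region had a median of 3 other protein-coding genes with a start in the window and genes without one had 1. Hsd17b1 and Amh had 7 each and Star 4, while Inhbb and Lhcgr had 0, Nr5a1 and Cyp19a1 had 1, Cyp11a1 had 2 and Cyp17a1 had 3. Inha, with 5, had no combined region in the window, the nearest being 52484 bp (GATA4) and 52296 bp (GATA6) from its start, just outside. Over all genes the number of neighbours moved with the presence of a combined region. Among the gonadal genes, Inha, Cyp17a1, Cyp11a1, Nr5a1 and Cyp19a1 had neighbours but no combined region. The part of neighbours in the counts was not tested.

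The GATA motif was also counted over all regions. Within 100 bp of the midpoint, 27 of the 95 regions in the gonadal windows held it, 28.4% with an exact (Clopper-Pearson) 95% interval of 19.6% to 38.6%, against 39.5% of all merged regions. Of the regions in 2 or more libraries, 5 of 25 held it (interval 6.83% to 40.7%), against 38.4% of such regions in the series. These intervals cover counting error only and treat regions as independent. Over the whole series, combined regions with the midpoint within 1 kb of a protein-coding start held the motif less often, 17.5% for GATA4 and 15.2% for GATA6, than the others, 59.0% and 52.5%. Of the combined regions around the gonadal genes, counted over both lists together, 7 of 9 were of the first kind. Counted per list, 46.3% of all GATA4 and 51.9% of all GATA6 combined regions were, so the values are not like for like. The 10 windows held 2125 motif matches in all, of which 96 lay in a called and 2 in a combined region, 1 around Hsd17b1 and 1 around Amh. A match of letters is a description of the sequence and not a measure of binding.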

How the data were processed

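The 6 libraries were grouped by antibody from the sample titles. The authors used Bowtie2 2.3.4.1 for alignment to mm10, called regions in each library with SEACR 1.3, without an IgG control as described and at a numeric threshold, and kept regions present in all replicates as the combined list of a factor. The deposited library lists give a total and a maximum signal per region, in stacked fragments unscaled for depth, and the combined lists give positions only. Signal was therefore ranked inside a list only, and maxima set side by side across libraries are descriptions. Such a threshold keeps the top part of the signal, so region numbers do not count true sites and uneven background is kept. Reads left after filtering are not given, so depth per library is unknown.

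Region counts per window were tested by exact permutation of the libraries (two-sided), adjusted over all genes tested. Sequence came from GRCm38.p6 and RefSeq. Members and lists were chosen with earlier results of these data known. Named regions were all combined regions in a window (the 4 nearest if more) and otherwise the merged region in most libraries, ties going to the nearest TSS. Other genes are named only as owners of the start nearest to such a region, and listed genes only with both factors at the promoter. Replicate numbers showed no pairing. The counting of regions and motifs was tested on simulated lists. Tools were samtools 1.23.1 and Python 3.11.15 with matplotlib 3.10.9, pysam 0.24.0, numpy 2.4.6 and scipy 1.17.1.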

Additional observations from a re-analysis of the deposited data

How the results depend on the processing

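Of 140 alternative values, 16 moved by more than 1.5 times for a count, by more than 1 SD for the summed difference or out of the 95% interval for a share, and 3 reversed. Among 90 of them for differences of single genes, none of which was past a threshold with all libraries, 7 fell to 0 and 12 more moved by over 1.5 times in the same direction. With a 10 kb window the genes with a combined region fell to 1 for GATA4 and 1 for GATA6 and the regions to 2 and 1. With 100 kb they were 7 and 5 genes and 19 GATA4 regions, and the difference in called regions was 12.3. Requiring 2 of 3 libraries gave 7 genes and 16 regions for GATA4. Leaving out each library in turn gave 3 to 5 genes and 8 to 11 regions for GATA4, 3 to 4 genes and 8 to 10 regions for GATA6, and a difference of 1.33 to 7.33 called regions per library. The count of 5 was reached without GATA4 replicate 1 and without GATA4 replicate 3. The Nr5a1 difference, -0.333 with all libraries, ranged from -1 (without GATA4 replicate 1) and reversed to 0.333 with only the regions above each list's median total signal, to 0.5 without GATA4 replicate 3 and to 0.167 without GATA6 replicate 3. The motif share was 52.6% within 250 bp and 52.6% for the core, where all regions had 69.1% and 69.0%. The wider windows, longer motif windows and looser library rules admit more regions or matches by construction, and the cause of the other shifts was not tested.

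With the replicate number as a block the difference stayed at 4.33, and 3 pairs cannot give p below 0.25. The correlations of same-numbered libraries were -0.0137, 0.0320 and -0.0284, so the numbers did not pair them. Depth after filtering is unknown, most calls rest on few fragments, and the absence of a call does not show the absence of binding.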
